A study of Mus musculus with 2 samples.

Results

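The genes described here are 37 protein-coding genes of fatty acid oxidation and triglyceride metabolism, taken by name from a list, out of 21887 protein-coding genes of the mouse RefSeq gene table (GRCm38.p6). For each gene, the deposited Hnf4a binding positions were counted inside the gene, within 10 kb of either gene end and within 50 kb of either gene end. The list holds 4 genes of fatty acid uptake, binding and activation, 16 genes of oxidation (3 of the carnitine shuttle, 10 mitochondrial, 3 peroxisomal), 1 of ketogenesis, 11 of synthesis (6 of fatty acids, 5 of triglycerides), 1 of lipid export, 2 of lipid droplets and lipolysis and 2 secreted regulators.

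Binding of Hnf4a was mapped by ChIL-seq, in which an antibody-guided probe lets Tn5 transposase tag the DNA around the bound protein inside fixed cells. The cells were iHepCs, made from wild-type C57BL/6J mouse embryonic fibroblasts by retroviral Foxa2 and Hnf4a and kept in a medium with insulin, nicotinamide, dexamethasone (100 nM), hepatocyte growth factor (20 ng/ml) and epidermal growth factor (20 ng/ml). All samples form 1 group of 2 biological replicates, whose peak names carry the same lot number, and no control sample was analysed here. Hnf4a was itself introduced by the virus, so binding of introduced and endogenous protein cannot be told apart, and no RNA was measured, so neither hepatocyte markers nor the expression of the genes below can be given.

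Hnf4a is a nuclear receptor of liver, gut, kidney and pancreas that binds direct repeats of an AGGTCA-like element and is known for its hold on hepatocyte lipid genes. In the hepatocyte, fatty acids are activated to acyl-CoA and then either enter mitochondria on carnitine for beta-oxidation and ketone production, or are esterified to triglyceride for storage in droplets or export in lipoproteins. Fasting favours the first route and feeding the second.

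Replicate 1 came with 21283 peak summits and replicate 2 with 24097, each a single base with the authors' score, the −log10 of a q-value. Scores describe peaks within a list and were not compared as amounts of binding. Summits of both lists within 100 bp of each other formed shared regions, of which there were 9193, and coordinates below are those of mm10 (GRCm38.p6) from the first to the last summit of a region. Read depth is unknown from these lists.

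Among the 37 genes, 12 (32.4%) held a shared region inside the gene, against 13.6% of the 21850 other genes. Within 10 kb of a gene end the count was 12 (32.4%) against 20.5%, and within 50 kb it was 23 (62.2%) against 46.8%. Inside the gene or within 10 kb of an end, 17 genes (45.9%) had a shared region, against 26% of other genes. These windows overlap, so the counts are not separate results. Over 1 kb from both ends of the gene, 9 genes (24.3%) held a shared region inside, against 11.3%. The 37 genes were chosen with earlier results of these data known, so no difference from other genes was tested. The list exceeded the background in both replicates taken alone. In replicate 1, 20 genes (54.1%) had a summit inside, 21 (56.8%) within 10 kb and 34 (91.9%) within 50 kb, against 26.3%, 39.4% and 69.3% of other genes. In replicate 2, the counts were 17 (45.9%), 22 (59.5%) and 33 (89.2%), against 28.4%, 41.9% and 72.4%. The genes were longer than the others, with a median of 29341 bp against 17142 bp, and per megabase of gene they held 7.31 shared regions against 4.16. The count inside genes depended on the distance that makes summits shared: with 50 bp it was 5 genes (13.5%), against 10.3% of other genes.

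**Figure D1:**
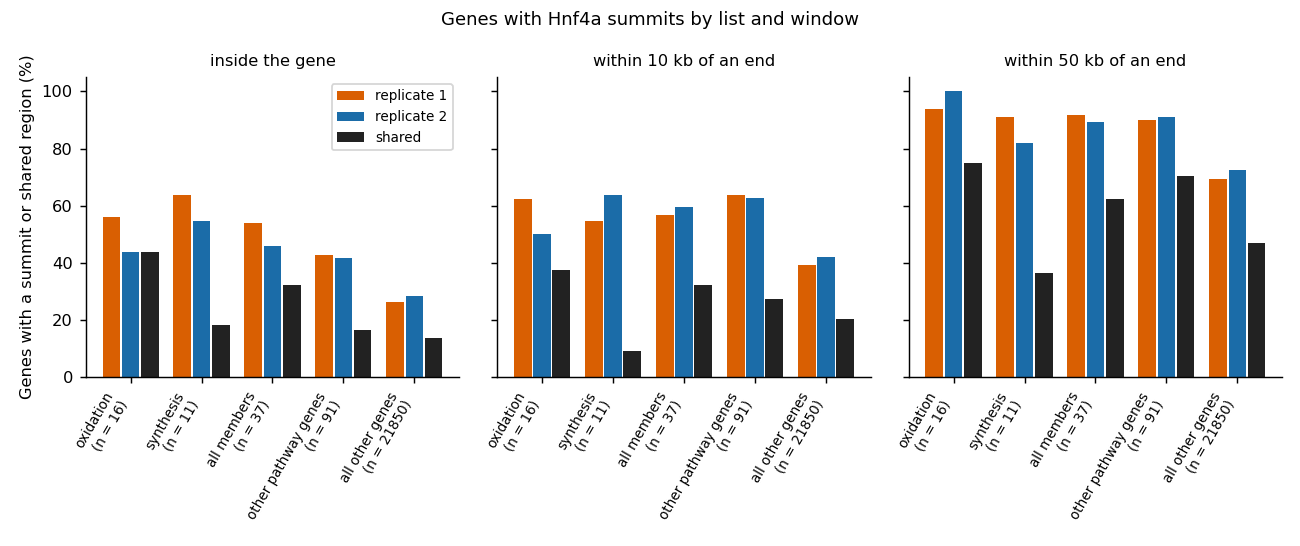
Percent of genes with a summit of replicate 1, a summit of replicate 2 or a shared region, inside the gene (left), within 10 kb of an end (middle) and within 50 kb (right), for oxidation genes, synthesis genes, all 37 genes, 91 other genes of the same pathways and all other genes. For shared regions inside genes, the black bars stand at 43.8% for oxidation, 18.2% for synthesis and 13.6% for all other genes.

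Of the 36 promoter windows that RefSeq's promoter table (GRCm38.p6) gives for 31 of the 37 genes, each 250 bases before to 50 after a start, 5 (13.9%) held a shared region, against 3.57% of 32815 windows of other genes. Summits of replicate 1 lay in 8 (22.2%) against 7.07%, and summits of replicate 2 in 5 (13.9%) against 6.4%. The 6 genes without a window were Acaa2, Decr1, Scd1, Dgat1, Dgat2 and Angptl4. Of these, Acaa2 and Scd1 had a shared region 203 and 671 bp outside the gene. The 5 genes with one in a window were Acsl1, Cpt2, Acadm, Acaa1a and Eci2. All 5 are of the uptake and activation class or the oxidation class, which hold 4 and 16 of the 37 genes. Their 250 bases before the start are printed because the binding data fall in them. The sequences are from RefSeq, read 5′ to 3′ on the gene's strand. Capitals run from the summit of one replicate to that of the other, or to the start for Acadm, whose replicate 1 summit lies 76 bases after it.

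Acsl1 (chr8:46470787-46471036, plus strand): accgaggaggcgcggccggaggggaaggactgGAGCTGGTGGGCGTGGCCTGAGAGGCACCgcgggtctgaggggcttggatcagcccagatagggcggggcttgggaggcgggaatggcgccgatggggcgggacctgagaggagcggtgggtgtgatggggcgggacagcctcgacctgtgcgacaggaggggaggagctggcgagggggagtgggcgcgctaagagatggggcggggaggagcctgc
Cpt2 (chr4:107923590-107923839, minus strand): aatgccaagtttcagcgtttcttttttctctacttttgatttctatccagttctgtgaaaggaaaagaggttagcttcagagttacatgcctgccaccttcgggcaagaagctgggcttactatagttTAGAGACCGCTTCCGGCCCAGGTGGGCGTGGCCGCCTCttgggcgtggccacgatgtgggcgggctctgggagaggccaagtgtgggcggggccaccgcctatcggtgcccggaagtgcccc
Acadm (chr3:153944644-153944893, minus strand): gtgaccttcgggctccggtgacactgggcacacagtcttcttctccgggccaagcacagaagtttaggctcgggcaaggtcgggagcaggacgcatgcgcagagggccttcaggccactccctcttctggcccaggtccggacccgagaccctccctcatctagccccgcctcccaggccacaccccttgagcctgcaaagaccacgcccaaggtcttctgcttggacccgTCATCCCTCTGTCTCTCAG
Acaa1a (chr9:119341044-119341293, plus strand): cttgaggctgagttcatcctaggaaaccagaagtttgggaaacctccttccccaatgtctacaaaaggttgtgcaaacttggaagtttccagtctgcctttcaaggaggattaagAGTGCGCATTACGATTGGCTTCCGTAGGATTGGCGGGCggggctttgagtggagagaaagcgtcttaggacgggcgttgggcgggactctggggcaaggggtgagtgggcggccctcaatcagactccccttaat
Eci2 (chr13:34994145-34994394, minus strand): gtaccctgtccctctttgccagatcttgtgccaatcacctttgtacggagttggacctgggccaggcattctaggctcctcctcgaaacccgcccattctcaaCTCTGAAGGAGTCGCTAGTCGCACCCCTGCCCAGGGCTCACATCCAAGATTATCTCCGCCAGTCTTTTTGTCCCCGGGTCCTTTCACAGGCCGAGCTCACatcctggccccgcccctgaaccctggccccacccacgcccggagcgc

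The summits lay 218 and 190 bases before the start of Acsl1 in replicates 1 and 2, 85 and 122 before that of Cpt2, 135 and 98 before that of Acaa1a, and 147 and 48 before that of Eci2. In Acadm the replicate 2 summit lay 19 bases before the start. The share of G and C in the printed stretches was 53.6% in Acaa1a, 56.8% in Cpt2, 61.2% in Eci2, 64% in Acadm and 72% in Acsl1. Over 300-base windows the median was 52.7% for other genes and 60.3% for all windows with a shared region, so Acaa1a was near the former and Cpt2 between both. For the 36 windows of the list the median was 60.7%.

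The HNF4 forms CAAAGTCCA and CAAAGGTCA, searched on both strands, were found in 0 of the 36 windows, against 0.475% and 0.478% of the windows of other genes. A direct repeat of AGGTCA with 1 base between was found in 0 windows, against 0.0396%. The single element AGGTCA, which is part of that repeat and overlaps the end of CAAAGGTCA, was in 12 windows (33.3%) against 16.2%, and in 12.3% of the 1176 windows of all genes with a shared region. Among the 5 printed stretches it occurs once, on the opposite strand at the far end of Acadm. GGGCGG, a GC box searched after the sequences were seen, occurs 4 times in Acsl1, 3 times in Acaa1a, 2 times each in Cpt2 and Eci2 and 0 times in Acadm. It was in 24 of the 36 windows (66.7%) against 35.6%, and in 74.1% of all windows with a shared region against 34.2% of those without.

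Among the uptake and activation genes, Acsl1 stood out. Acsl1, which makes long-chain acyl-CoA from fatty acids, had 4 shared regions, more than any of the other genes on the list save Lpin2, which also had 4. Its promoter region (chr8:46470819-46470847), 204 bp before the start, scored 32.4 in replicate 1 and 50.7 in replicate 2, the highest scores of both replicates among regions near these genes. By rank this region was number 274 of the 9193 shared regions in replicate 1 and number 74 in replicate 2. Upstream regions lay 24.7 kb (23 and 23.1) and 41.1 kb (11.3 and 13.8) from the gene, and one inside it (chr8:46479084-46479089), 8049 bp from the start, scored 7.44 and 5.46. The scores of both replicates thus fell off in the same order at these 4 sites. Slc27a2, a very long-chain acyl-CoA synthetase and fatty acid transporter, held a shared region inside the gene (chr2:126555751-126555809), 2756 bp after the start, with scores of 16.1 and 7.45. Cd36, the fatty acid translocase, had none inside and 2 outside its span, 35.6 kb (5.52 and 7.94) and 39.9 kb away (14.4 and 12.5), the farther one nearer to Gnat3. Fabp1, the liver fatty acid binding protein, had no shared region within 50 kb. Its only summits there were 2 of replicate 1, scored 3.1 and 3.43, and its nearest shared region was 65764 bp away.

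**Figure D2:**
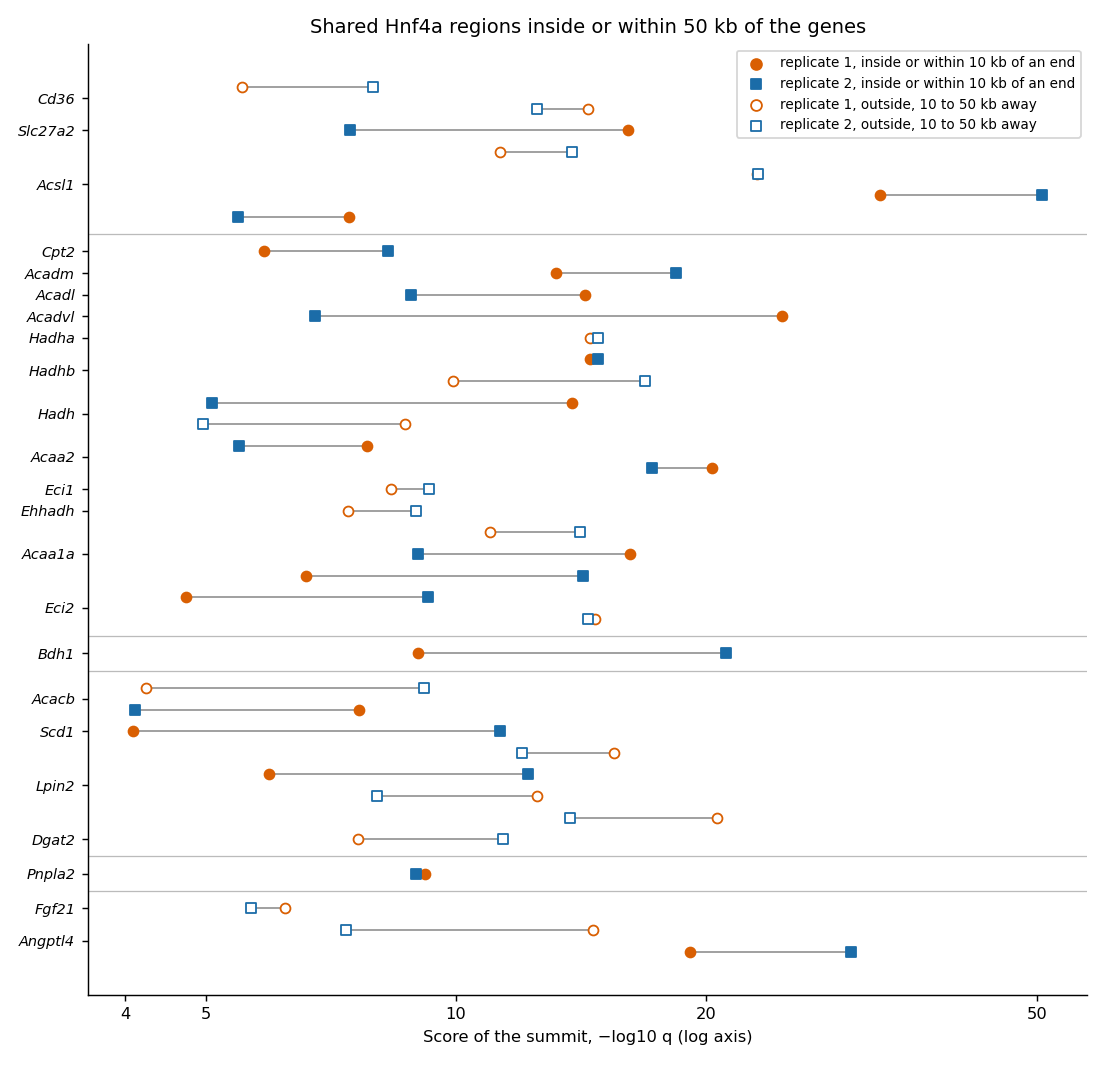
Scores (−log10 q, log axis) of both replicates, joined by a line, at each shared region inside or within 50 kb of the genes on the list. Filled symbols are regions inside the gene or within 10 kb of an end, open symbols lie 10 to 50 kb away, grey lines separate the functional classes, and the pair at 32.4 and 50.7 is the Acsl1 promoter.

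The carnitine shuttle was unevenly covered. Cpt2, the inner membrane carnitine palmitoyltransferase, had 1 shared region, at its promoter (chr4:107923674-107923711), with modest scores of 5.87 and 8.29. Cpt1a, the outer membrane enzyme that sets the rate of the shuttle, had no shared region within 50 kb, and the nearest was 133904 bp away. Replicate 1 placed 5 summits there, scored up to 11.3, while replicate 2 placed 1, scored 4.21, inside the gene. Slc25a20, the carnitine-acylcarnitine carrier, had none either, although replicate 1 had a summit of 4.09 in its promoter window, 149 bp before the gene.

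Mitochondrial beta-oxidation held 8 of 10 genes with a shared region within 50 kb, 5 with one inside the gene and 4 with one within 10 kb of an end, where the shares of other genes were 46.8%, 13.6% and 20.5%. The acyl-CoA dehydrogenases, which start each cycle for chains of different length, differed. At Acadm (medium chain) the promoter region (chr3:153944567-153944662) scored 13.2 and 18.4. At Acadl (long chain) a region inside the gene (chr1:66846256-66846288), 15433 bp from an end, scored 14.3 and 8.83. Acadvl (very long chain) had a region (chr11:70021508-70021510) 6081 bp before the start, inside the neighbouring gene Dlg4, with scores of 24.7 and 6.76. Acads (short chain) had no shared region within 50 kb and 1 summit of each replicate, 47.6 and 39 kb away on opposite sides.

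The later steps were covered in part. Hadha and Hadhb, the subunits of the trifunctional protein, are neighbours and share 1 region (chr5:30167525-30167620), which lies inside Hadhb 12319 bp from its start and 12592 bp from Hadha, with near-equal scores of 14.5 and 14.8. Hadhb had another, 49.7 kb away inside Selenoi (9.93 and 16.9). Hadh, the short-chain hydroxyacyl-CoA dehydrogenase, held a region (chr3:131271416-131271491) 648 bp after its start, scored 13.8 in replicate 1 and 5.09 in replicate 2, and another 31.2 kb away in Cyp2u1 (8.69 and 4.96). Acaa2, the mitochondrial thiolase, had 2 regions. One at chr18:74781836-74781910, inside the gene and 2661 bp from an end, scored 20.3 and 17.2, and one at chr18:74779001-74779017, 203 bp outside the same end, scored 7.81 and 5.48. Eci1, an enoyl-CoA isomerase, had one only at 16.1 kb (8.34 and 9.27), 26 bp from the neighbouring gene E4f1. Decr1, the dienoyl-CoA reductase, had none within 50 kb and a single summit of replicate 2 (4.42) 7.13 kb from the gene.

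All 3 peroxisomal genes had a shared region within 50 kb, against 46.8% of other genes. At the promoter 2 of them had one, against 3.57% of the promoter windows of other genes. Of 12 other peroxisomal genes of the same pathways, 0 held one inside, 1 (8.33%) had one within 10 kb and 10 (83.3%) within 50 kb. Acaa1a, the peroxisomal thiolase, scored 16.2 and 9 at its promoter (chr9:119341159-119341196), 6.6 and 14.2 at a region (chr9:119357442-119357525) 7187 bp outside the gene in Xylb, and 11 and 14.1 at one 21.9 kb away in Oxsr1. Eci2, a peroxisomal enoyl-CoA isomerase, scored 4.73 and 9.26 at the promoter (chr13:34994192-34994291) and 14.7 and 14.4 at a region 31.2 kb away. Ehhadh, the peroxisomal bifunctional enzyme, had a replicate 1 summit of 6.82 in its promoter window but a shared region only 42.9 kb away (7.42 and 8.96). Bdh1, which converts acetoacetate to the ketone body 3-hydroxybutyrate, held a region (chr16:31429810-31429893) 7554 bp inside an end of the gene, with scores of 8.99 and 21.1.

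**Figure D3:**
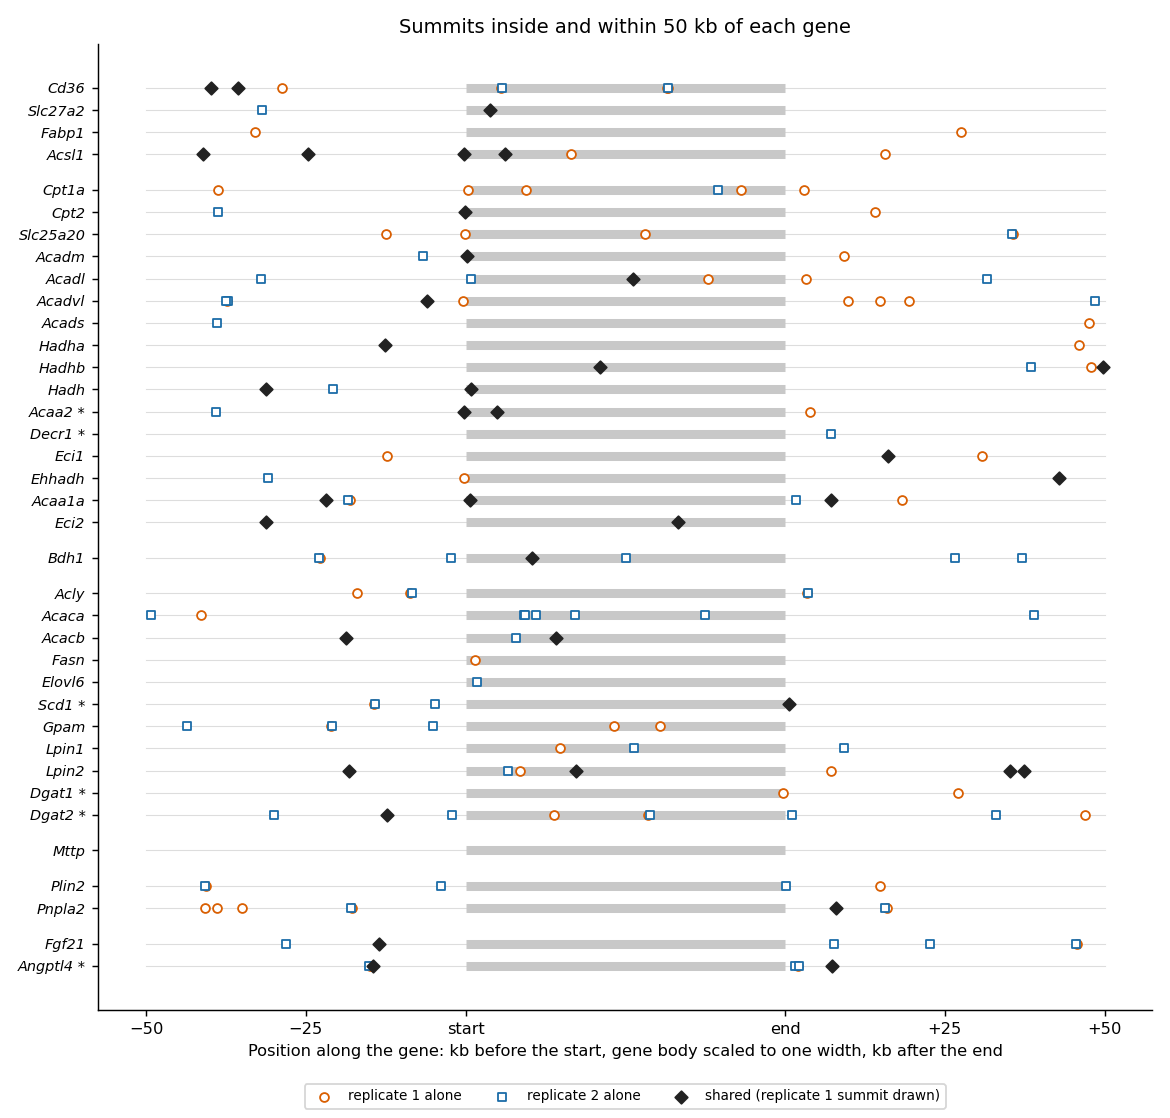
Summits inside and within 50 kb of the genes on the list, with each gene body (grey) scaled to 1 width and flanks in kb. Open symbols are summits of 1 replicate alone and black diamonds are shared regions. Genes run 5′ to 3′ except the 6 marked with an asterisk, which run by coordinate. Mttp has no symbol at all.

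Of the 11 synthesis genes, 2 (18.2%) held a shared region inside and 4 (36.4%) had one within 50 kb, near the 13.6% and 46.8% of other genes. Per megabase of gene the class held 2.35 shared regions, against 4.16 in other genes. Acacb, the mitochondria-associated acetyl-CoA carboxylase whose product inhibits the carnitine shuttle, held one inside the gene at chr5:114175757-114175782 (7.65 and 4.11) and had one 18.7 kb away in Alkbh2 (4.24 and 9.16). Scd1, the stearoyl-CoA desaturase, had one (chr19:44408376-44408384) 671 bp outside the gene, with unequal scores of 4.09 and 11.3. Lpin2, a phosphatidate phosphatase, held one inside at chr17:71206376-71206426 (5.96 and 12.2) and had 3 more at 18.3 kb (15.5 and 12), 35.3 kb (12.5 and 8.04) and 37.4 kb (20.6 and 13.7), the last pair inside Emilin2. Dgat2, which adds the last acyl chain to triglyceride, had one 12293 bp away (7.62 and 11.4), 203 bp from Uvrag.

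The other 7 synthesis genes had no shared region within 50 kb, yet none of them was without summits. Acaca, the cytosolic acetyl-CoA carboxylase, had 5 summits of replicate 2 inside the gene, scored 3.11 to 8.6, and none of replicate 1 there. Fasn, the fatty acid synthase, had 1 summit of replicate 1 (9.26), in its promoter window 27 bases before the start. Elovl6, a fatty acid elongase, had 1 summit of replicate 2 (5.7) inside the gene. Dgat1, the other acyltransferase of the last step, had 2 of replicate 1 (6.65 and 7.27). Lpin1 (a phosphatidate phosphatase), Gpam (which starts glycerolipid synthesis) and Acly (which makes cytosolic acetyl-CoA) had summits of both replicates over 100 bp apart. At Acly, 2 pairs lay 172 and 261 bp apart and at Gpam 1 pair lay 123 bp apart, beyond the 100 bp limit for sharing. Just inside that limit were shared regions at the Eci2 promoter and Dgat2 (99 bp) and at the Acadm promoter and Hadhb (95 bp).

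Mttp, which loads lipid onto apolipoprotein B for export, was the only one of the 37 genes with no summit of either replicate inside or within 50 kb. Its nearest shared region was 98598 bp away. Among other genes, 4499 of 21850 had no summit in this span. Of the droplet genes, Pnpla2, the adipose triglyceride lipase, had a shared region (chr7:141468649-141468669) 7916 bp away inside Cd151 and also nearer to Cracr2b, Polr2l and Tspan4 (9.18 and 8.96), and Plin2, a droplet coat protein, had none within 50 kb. Angptl4, a secreted inhibitor of lipoprotein lipase, had 1 region (chr17:33788814-33788858) at 7261 bp to which it was the nearest gene (19.1 and 29.9) and 1 at 14.4 kb (14.6 and 7.37), 1 bp from Rab11b. Fgf21, a fasting hormone of the liver, had 1 at 13484 bp, inside Rasip1 (6.22 and 5.67).

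By class, 7 of 16 oxidation genes (43.8%) and 2 of 11 synthesis genes (18.2%) held a shared region inside, 6 (37.5%) and 1 (9.09%) had one within 10 kb, and 12 (75%) and 4 (36.4%) had one within 50 kb. Among other genes the shares were 13.6%, 20.5% and 46.8%. With 100 bp for sharing, synthesis genes thus lay above the background inside and below it in both windows. Per megabase of gene, however, the synthesis class held 2.35 shared regions, against 4.16 in other genes and 16.2 in the oxidation class. For summits of a single replicate the order of the classes varied. Inside genes it was turned, with 9 of 16 oxidation genes (56.2%) and 7 of 11 synthesis genes (63.6%) in replicate 1, and 7 (43.8%) and 6 (54.5%) in replicate 2. Within 10 kb, oxidation was higher in replicate 1 (62.5% against 54.5%) and lower in replicate 2 (50% against 63.6%). Within 50 kb it was higher in both, with 93.8% against 90.9% and 100% against 81.8%. Both classes were above other genes in each of these windows. Other genes stood at 26.3%, 39.4% and 69.3% in replicate 1 and at 28.4%, 41.9% and 72.4% in replicate 2. Near oxidation genes 17 of 35 replicate 2 summits were shared (48.6%, 95% exact binomial interval 31.4 to 66, counting error only), and near synthesis genes 8 of 32 (25%, 11.5 to 43.4). In replicate 1 the shares were 17 of 44 (38.6%, 24.4 to 54.5) and 8 of 25 (32%, 14.9 to 53.5). Of all summits, 43.2% were shared in replicate 1 and 38.2% in replicate 2. Oxidation was thus below that share in replicate 1 and above it in replicate 2, and synthesis was below it in both. The intervals take summits as independent, which those of 1 library need not be, so no class difference is read from them. The synthesis genes were longer, with a median of 59685 bp against 26773 bp. With 50 bp for sharing, 2 genes of each class held a region inside. Within 10 kb, 4 oxidation genes and 1 synthesis gene had one, and within 50 kb 10 and 3. Other genes then stood at 10.3%, 15.2% and 37.4%. With scores of 5 or more, 6 oxidation genes and 1 synthesis gene held a region inside. Within 10 kb the counts were 6 and 0, and within 50 kb 12 and 2, with other genes at 12.2%, 18.1% and 42.9%. With the 10000 best-scored summits they were 5 and 0 inside, 3 and 0 within 10 kb and 8 and 1 within 50 kb. Other genes were then at 8.36%, 12% and 31.1%. With 200 bp for sharing, 7 oxidation and 3 synthesis genes held a region inside, and 6 and 2 had one within 10 kb. Of other genes, 15.7% and 23.9% did. Within 50 kb, 12 oxidation and 6 synthesis genes (54.5%) had one, with other genes at 51.8%. With 500 bp the counts within 50 kb were 13 and 6, with other genes at 53.5%.

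The order of the classes inside genes was not seen in 91 other genes of the same pathways. Of 25 further oxidation genes 0 held a shared region inside, 6 (24%) had one within 10 kb and 19 (76%) within 50 kb. Of 21 further synthesis genes, 5 (23.8%), 7 (33.3%) and 16 (76.2%) did. With both lists pooled, 7 of 41 oxidation genes (17.1%) and 7 of 32 synthesis genes (21.9%) held one inside. In the wider windows the pooled oxidation share was the higher, with 29.3% against 25% within 10 kb and 75.6% against 62.5% within 50 kb. Over all 91 further genes the counts were 15 inside (16.5%), 25 within 10 kb (27.5%) and 64 within 50 kb (70.3%).

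**Figure D4:**
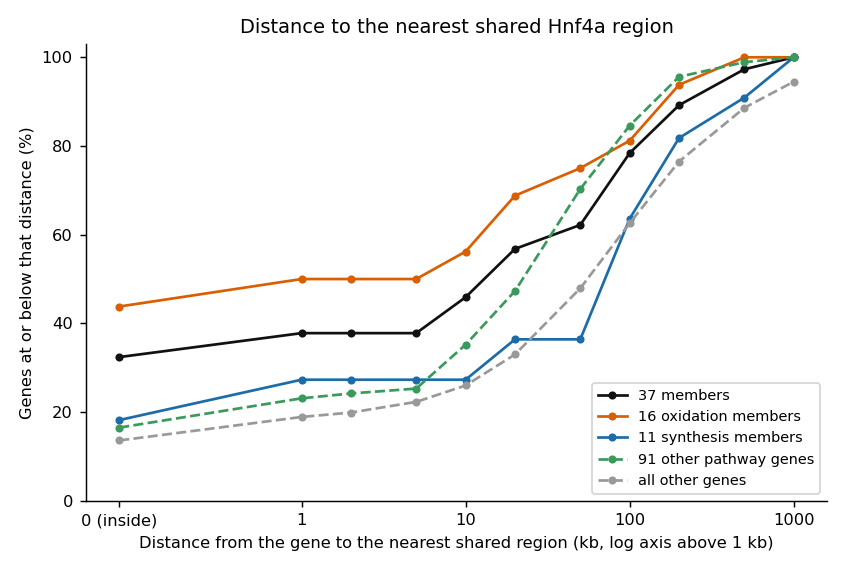
Cumulative percent of genes by the distance from the gene to the nearest shared region (kb, log axis above 1 kb), for the 37 genes, their oxidation and synthesis classes, 91 other pathway genes and all other genes. At 10 kb the curves stand at 56.2% for oxidation, 27.3% for synthesis and 26% for all other genes, and by 50 kb the 91 pathway genes (70.3%) lie above the 37 (62.2%).

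The median distance from a gene to its nearest shared region was 12592 bp for the 37 genes, 3092 bp for the oxidation class, 92054 bp for the synthesis class and 55347 bp for other genes. Nearness to a gene does not assign a region to it. Of the 37 distinct shared regions inside or within 50 kb of these genes, 22 had a gene of the list as their nearest gene and 15 were inside or nearer to another. Counted that way, 16 genes (43.2%) were the nearest gene of a shared region within 50 kb, against 23.6% of other genes, and 7 had a region in range that was nearer to another gene. Just inside the 10 kb limit were regions of Bdh1 (7554 bp), Pnpla2 (7916 bp) and Acsl1 (8049 bp). Acsl1 also had a region 204 bp before its start, and the Bdh1 region lay 1098 bp after an annotated start. Just outside the limit were Dgat2 (12293 bp), Hadhb (12319 bp) and Hadha (12592 bp). A window of 20 kb raised the count from 12 to 21 genes (56.8%), against 29.7% of other genes.

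The median score of these 37 regions was 11 for replicate 1, where all shared regions had 9.93, and 9.27 for replicate 2, where all had 9.61. Replicate 1 scored higher at 18 and replicate 2 at 19. Across these regions the scores of the replicates had a Spearman rho of 0.35 (n = 37), and across all 9193 one of 0.59, each given as a description since regions share their libraries and were chosen for having a summit in both. Only 4 regions (10.8%) were in the top 25% of both replicates, against 16% of all shared regions. They lay at Acsl1, Acaa2 and Angptl4, so 3 genes (8.11%) had such a region within 50 kb, and the same 3 inside or within 10 kb, against 11.3% and 5.16% of other genes. An unshared summit of each replicate at most 300 bp apart was found inside or within 50 kb of 13 genes (35.1%), against 17.7% of other genes. With the 10000 best-scored summits of each replicate alone, 6 genes (16.2%) had a shared region inside, against 8.36% of other genes.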

How the data were processed

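Each of the 2 deposited files lists the 1-bp summits of a single library in mm10, and its score column is the authors' −log10 q-value. Tools listed in the submitters' processing notes are MACS2 2.2.9.1, HISAT2 2.0.5 and fastp 0.23.4. A q threshold of 0.01 is written in the peak names. The lowest deposited −log10 q-value was 2.04 in replicate 1 and 2.01 in replicate 2. For a control library and for removal of duplicates, the step is not given in the sources.

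Neighbouring summits no more than 100 bp apart, whichever list they came from, were chained into regions. A region with a summit of each replicate was shared and placed by its midpoint. Gene spans were RefSeq's for GRCm38.p6, which is mm10's assembly. No test was run, because there is 1 group and because the genes and pathway lists were chosen with earlier results of these data known. Shares of all other genes stand beside the counts instead. Every gene of the list is described, with position, scores and nearer genes where a region is within 10 kb. Alternatives covered the sharing distance, scores, windows, single replicates and backgrounds. Counting was tested on simulated data. Python 3.11.15, numpy 2.4.6 and scipy 1.17.1 were used.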

Additional observations from a re-analysis of the deposited data

How the results depend on the processing

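The main counts were 12 genes with a shared region inside, 12 within 10 kb and 23 within 50 kb. Sharing within 50 bp gave 5 inside. The 10000 best-scored summits gave 6, 7 and 14, which were 16.2%, 18.9% and 37.8% of the 37 genes against 8.36%, 12% and 31.1% of other genes. A 20 kb window in place of 10 kb gave 21. Single replicates gave 17 to 20 inside, 21 to 22 within 10 kb and 33 to 34 within 50 kb. Of all combinations of count and alternative, 8 moved by over 1.5 times and 23, with 3 of the single-replicate counts among them, did not. Against 7799 genes in the list's length quartiles, the backgrounds were 12.4%, 24.9% and 51.3%. No paired analysis was possible because there is 1 group. The search for GGGCGG was chosen after seeing the data. Depth per library is unknown, and 2 libraries of 1 lot limit what their spread covers.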

Other observations

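Among the 91 other pathway genes, 18 (19.8%) had a shared region of the top 25% of both replicates inside or within 50 kb, against 11.3% of the genes outside the list of 37. Inside or within 10 kb, 7 (7.69%) had one, against 5.16%, and for 6 of them it was the gene's best-ranked region. Cideb, a droplet protein of lipoprotein loading, held one inside the gene that scored 28.4 and 32.2, in a stretch that also belongs to Ltb4r2. Lipe, the hormone-sensitive lipase, held one scored 23.1 and 25.2, and Lipc, the hepatic lipase, one scored 17.8 and 15.3. Acss2, which makes acetyl-CoA from acetate, had one 69 bp outside the gene (18.6 and 18.5). Slc25a1, the mitochondrial citrate carrier, had one 8.09 kb away (28.1 and 32.6), nearer to Ess2 and Gsc2, and Mlxipl, the carbohydrate response factor, one 9.44 kb away (18.2 and 30.5), nearer to Tbl2.

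Replicate summits that missed each other by little were spread over the 37 genes. Pairing each unshared summit of replicate 1 with every unshared summit of replicate 2 at most 300 bp away gave 19 pairs at 13 genes (35.1%, against 17.7% of other genes), with gaps of 106 to 282 bp. The synthesis class held 5 of these pairs at 4 genes and the oxidation class 4 at 3 genes. A summit can be in more than 1 pair. At Cd36, 3 pairs lay inside the gene, scored up to 17.8 in replicate 1 and 12.8 in replicate 2, with gaps of 186 to 219 bp.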
